A study of Mus musculus with 19 samples.

Results

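The transcripts of the synaptic vesicle and release machinery were examined in RNA-seq data of retinal ganglion cells (RGCs) from embryonic mice. The machinery was represented by 42 genes, taken by symbol from the synaptic vesicle, SNARE, active zone and endocytosis genes of the mouse annotation. Each of the 42 symbols matched 1 Ensembl identifier among the 47069 in the count tables, and all 42 genes passed the filter on low counts that left 15941 genes to test. They fell into 8 synaptotagmins, 9 vesicle membrane proteins and glutamate transporters, 8 SNARE proteins, fusion ATPase and complexin genes, 12 active zone, priming and Rab3 genes, and 5 genes of vesicle endocytosis.

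Neurons store transmitter in small vesicles that are held near the membrane of the axon terminal. SNARE proteins pull the vesicle and the plasma membrane together, complexins hold the assembled complex in check, and synaptotagmins trigger the final fusion when calcium enters through channels that active zone proteins keep close to the docked vesicle. After fusion the vesicle membrane is retrieved by endocytosis and refilled. RGCs, the output neurons of the retina, use glutamate and load it through Slc17a6 (VGLUT2). Many of these proteins are made while the axon is still growing and are carried down it before any synapse has formed.

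The study compared RGCs whose axons stay on the same side of the brain (iRGCs) with those whose axons cross the midline (cRGCs) at E16.5, when axons reach the optic chiasm. The paper states that iRGCs start to be born later and were on average the younger population at this stage. Cell age and side of projection thus cannot be told apart in this comparison. Both groups carried a Cre-dependent cassette in the Rosa26 locus, CAG-[Stop]-Sun1-GFP, and GFP-positive cells were sorted from retinas of C57/DBA F1 embryos of both sexes that were pooled and labelled WT. The 3 iRGC libraries came from the Slc6a4-Cre line ET33, in which the serotonin transporter gene's regulatory sequence drives Cre, and the 3 cRGC libraries from Pou4f2-Cre mice, in which Cre was targeted to the Brn3b locus, after the ventrotemporal retina had been removed. Sun1-GFP marks the nuclear envelope of cells that made Cre and of their descendants, so neither sort reads the fate of the axon itself. In the iRGC libraries 28193178, 29759011 and 30874653 reads were counted on genes, and in the cRGC libraries 28274471, 30454674 and 33638083. The labels call the libraries biological replicates without naming the embryos or litters, so p-values measure the spread between these libraries. Levels are given as CPM, read counts relative to the library's total after scaling with edgeR's TMM factors. A negative log2 fold change means a lower level in iRGCs, and each is given with its standard error (SE). A gene counted as called at a Benjamini-Hochberg adjusted p under 0.1 over all tested genes in edgeR's quasi-likelihood test, which is the source of every adjusted p given below for a gene. In bulk RNA of sorted cells, fewer cells of a type and less RNA per cell cannot be told apart.

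Marker genes were read first to compare the libraries with their labels. Zic2, the transcription factor of the ipsilateral programme, stood at 134, 173 and 157 CPM in the iRGC libraries and 57.0, 60.2 and 65.7 CPM in the cRGC libraries. Pou4f1, a factor of most contralateral RGCs, stood at 107, 116 and 182 CPM in the iRGC libraries and 861, 672 and 431 CPM in the cRGC libraries. Boc, a receptor subunit of the ipsilateral programme, was higher in iRGCs with no overlap between the groups (edgeR, log2 fold change 1.70, SE 0.47, adjusted p = 0.0184). Ephb1, the ephrin receptor of that programme, was not called, at 57.4, 57.6 and 109.8 CPM in the iRGC libraries and 69.3, 85.2 and 115 CPM in the cRGC libraries (edgeR, log2 fold change -0.26, SE 0.28, adjusted p = 0.499). Zic2, Boc and Pou4f1 thus separated the groups in the direction of their labels under TMM scaling, and Ephb1 did not. Pou4f1 was not called against the pan-neuronal genes described below (edgeR, log2 fold change -0.44, adjusted p = 0.197), and Zic2 stood at 3.25 on that scale. Pou4f2, the gene whose locus drives Cre in the cRGC line, stood at -1.15 under TMM scaling and turned to 0.76 against the pan-neuronal genes. Slc6a4, whose regulatory sequence drives the Cre of the iRGC line, was measured at 2.06, 33.4 and 116 CPM in the iRGC libraries and 48.1, 35.4 and 30.5 CPM in the cRGC libraries. The library labelled iRGC replicate 1 thus had less Slc6a4 than any cRGC library and replicate 3 had more, and the gene was not called (edgeR, log2 fold change 0.41, SE 0.93, adjusted p = 0.768). Against the pan-neuronal genes Slc6a4 was called higher at 1.92 (edgeR, adjusted p = 0.00578) and Ephb1 at 1.56 (edgeR, adjusted p = 9.19e-05). Of all tested genes 78.7% were called higher on that scale. The pan-RGC marker Rbpms was lower in iRGCs under TMM scaling, with 78.7, 109 and 171 CPM in the iRGC libraries and 549.8, 431 and 452 CPM in the cRGC libraries. It was not called against the pan-neuronal genes (edgeR, log2 fold change -0.19, adjusted p = 0.55).

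Most of the release machinery was lower in iRGCs than in cRGCs under TMM scaling. Of the 42 genes, 35 (83.3%) were called lower, against 23.1% of all tested genes, and 1 gene (2.38%), Cplx3, was called higher, against 23.3%. The 6 genes not called were Syt2, Syt6, Sv2b, Slc17a7, Vamp1 and Cplx2. With an absolute log2 fold change above 1 as well, 32 genes were lower, against 11.0% of all tested genes, and Cplx3 was higher, against 12.1%. The median log2 fold change over the 42 genes was -1.64, against -0.003 over all tested genes. In 36 genes every iRGC library lay below every cRGC library, which held for 28.2% of all tested genes, and in Cplx3 every iRGC library lay above, which held for 27.1%. Summed over the 42 genes, the level was 2687, 2908 and 4103 CPM in the iRGC libraries and 9239, 8471 and 8249 CPM in the cRGC libraries.

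**Figure D1:**
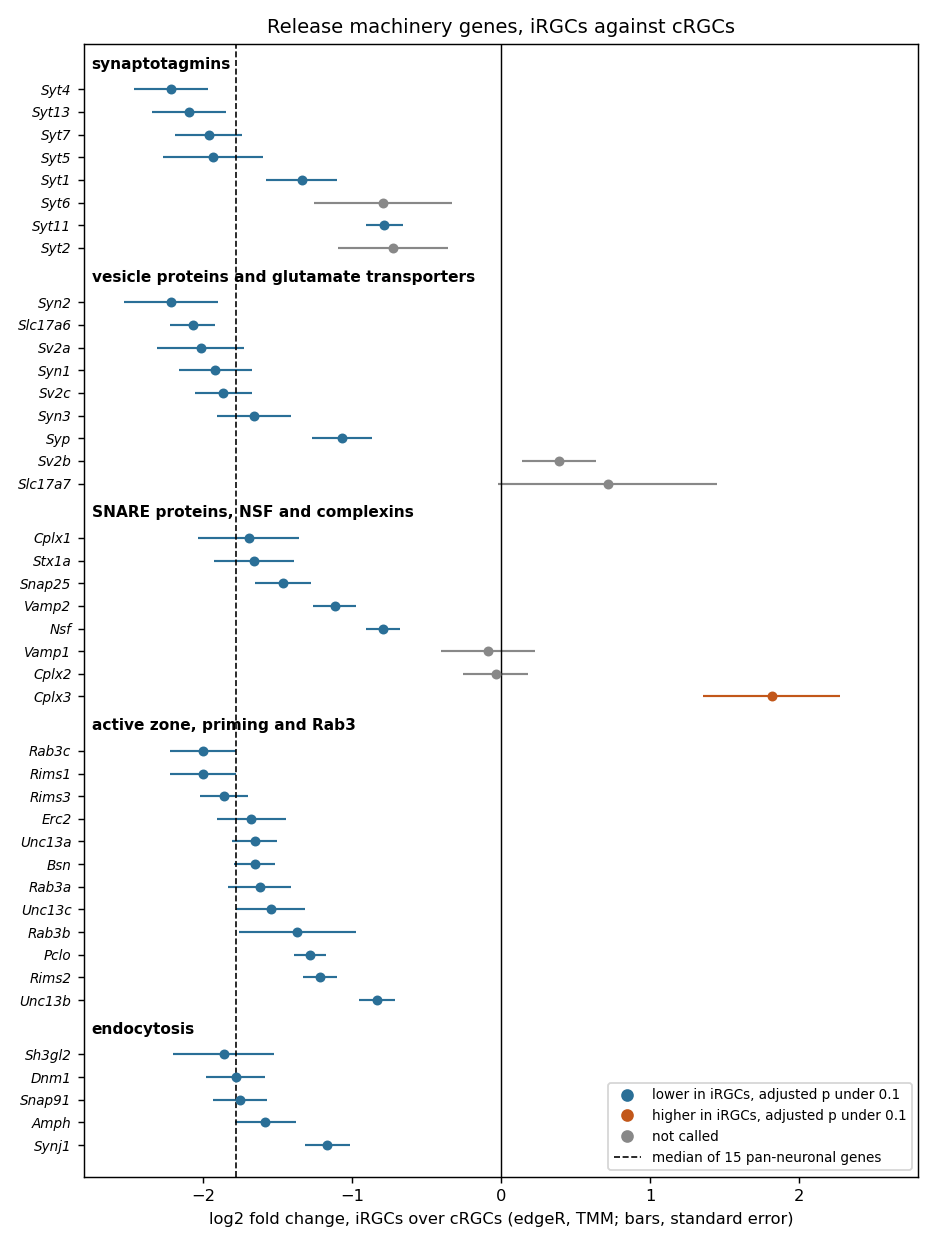
Log2 fold change of iRGCs over cRGCs for the 42 genes, grouped by role (horizontal axis, edgeR with TMM scaling; points are fold changes and bars their standard errors). Blue marks genes called lower, orange the gene called higher and grey those not called, and the dashed line is the median of 15 pan-neuronal genes, -1.78. The 12 active zone genes and the 5 endocytosis genes are all on the lower side under TMM scaling, and 28 of the 42 genes turned sign when the libraries were scaled by the pan-neuronal genes.

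The same libraries differed in general neuronal transcripts and in transcripts of other cells. A list of 15 pan-neuronal genes, none of them in the machinery, summed to 4266, 5700 and 8689 CPM in the iRGC libraries and 22180, 20580 and 23040 CPM in the cRGC libraries, with Ina the most abundant, and all 15 were called lower with a median log2 fold change of -1.78. Of 12 RGC markers, 11 were called lower, and they summed to 1702, 2402 and 3654 CPM against 9529, 8588 and 11000 CPM, with Nefm the most abundant. All 16 retinal progenitor markers were called higher in iRGCs, with sums of 11410, 9921 and 8929 CPM against 1142, 2662 and 1772 CPM and Ccnd1 the most abundant. All 8 markers of neurogenic precursors, the cells leaving the cycle, were higher too, with 1439, 1663 and 1376 CPM against 307, 524 and 465 CPM and Hes6 the most abundant. These calls were made under TMM scaling, where 23.1% of all tested genes were called lower and 23.3% higher. The part of these differences in that of the release machinery was not tested.

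When the libraries were instead scaled by the 15 pan-neuronal genes, the median log2 fold change of the 42 release genes became 0.24, while that of all tested genes became 1.92. On that scale 0 release genes were called lower in edgeR and also 0 at an unadjusted p under 0.05, and 15 were called higher, with 0.263% of all tested genes called lower and 78.7% higher. Of the 12 RGC markers, 0 were called lower and 1 higher on that scale, with a median log2 fold change of -0.17. All 16 progenitor and all 8 neurogenic precursor markers were called higher. Of the 42 release genes, 28 changed sign. Cplx3, Sv2b and Slc17a7, already above 0 under TMM scaling, were called higher at 3.63, 2.29 and 2.52. Syt4, Syn2, Syt13, Sv2a, Slc17a6, Rab3c, Rims1, Syt5, Syt7, Sh3gl2 and Syn1 stayed below 0 without being called, from -0.42 for Syn2 to -0.11 for Syn1. The lower levels given below are thus relative to each library's counted reads after TMM scaling, and total RNA was not measured.

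**Figure D2:**
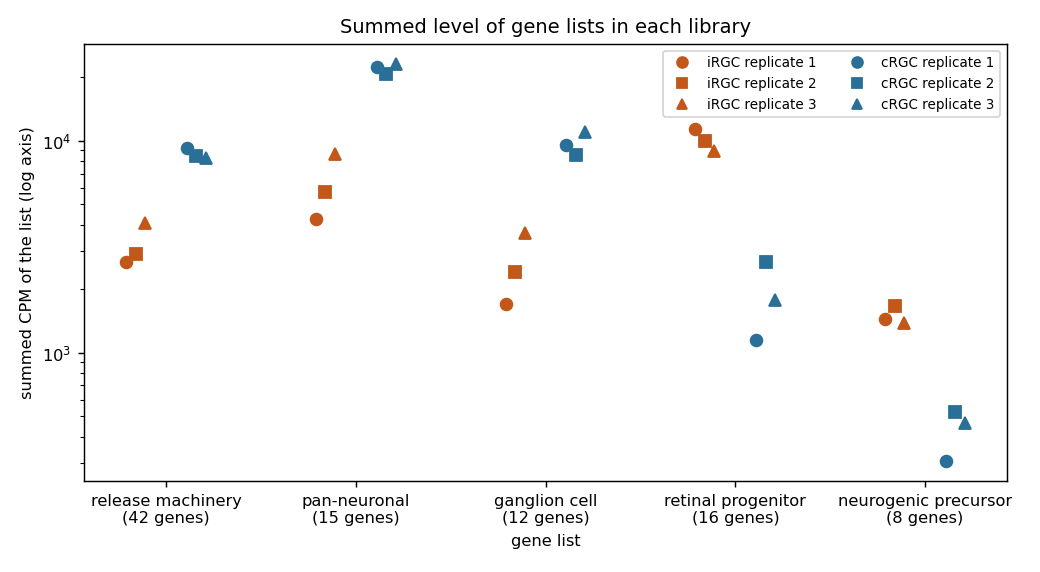
Summed CPM of 5 gene lists in each of the 6 libraries (vertical log axis; 1 point per library, iRGCs in orange, cRGCs in blue, replicates by shape). Release machinery, pan-neuronal and ganglion cell genes lie lower in the iRGC libraries, progenitor and precursor markers lie higher, and replicate 3 is the iRGC library with the most neuronal and the least progenitor transcript.

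Markers of the other cells a retinal sort could hold were read in the same way. Calls are under TMM scaling, where 23.3% of all tested genes were called higher and 23.1% lower. The 10 amacrine markers summed to 1163, 1258 and 1362 CPM in iRGCs and 1209, 1091 and 1164 CPM in cRGCs, with Pax6 the most abundant, 7 called higher and 1 lower. The 5 horizontal cell markers summed to 313, 316 and 323 CPM and 257, 273 and 388 CPM, with Onecut2 the most abundant, 1 called higher and Calb1 at 0 in iRGC replicate 1. The 8 photoreceptor precursor markers summed to 824, 655 and 649 CPM and 173, 261 and 209 CPM, led by Otx2, and of the 7 tested 6 were higher and 1 lower, while Rcvrn was at 0 in 5 of the 6 libraries. Endothelial markers were higher in iRGCs for 5 of 5 tested genes, with Kdr the most abundant and sums of 446, 624 and 433 CPM against 87.2, 108 and 70.3 CPM, and Cdh5 and Tie1 were at 0 in all 3 cRGC libraries. Mural markers, led by Notch3, were higher for 4 of 5 tested genes and summed to 135, 279.6 and 109 CPM against 21.9, 32.6 and 23.3 CPM, with Kcnj8 at 0 in all 3 cRGC libraries. Microglial markers, led by Csf1r, were higher for 3 of 6 tested genes, at 13.1, 23.6 and 18.2 CPM against 0.769, 4.62 and 1.48 CPM, and Csf1r was at 0 in cRGC replicate 1. Erythroid markers, led by Hbb-bs, were higher for 4 of 4 tested genes, at 12.2, 92.7 and 15.2 CPM against 0, 5.11 and 0.290 CPM, with Hbb-bs at 0 in cRGC replicates 1 and 3. The library of iRGC replicate 2 had the highest sums of vessel and blood genes. Without it 35 release genes were called lower, with a median log2 fold change of -1.54. The remaining iRGC libraries also lay above every cRGC library in endothelial and mural sums, so that run does not take these transcripts out. Against the pan-neuronal genes, 10 of 10 amacrine, 4 of 5 horizontal and 7 of 7 tested photoreceptor precursor markers were called higher and 0 lower. On the same scale 5 of 5 endothelial, 5 of 5 mural, 5 of 6 microglial and 4 of 4 erythroid markers tested were called higher. Of all tested genes 78.7% were. The part of these cell types in the release genes' difference was not tested.

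REST, a repressor that silences many neuronal genes in cells that are not neurons, acts through a DNA element called RE1, and several release genes are classic RE1 genes. Rest was measured at 86.9, 71.2 and 60.3 CPM in the iRGC libraries and 23.7, 20.8 and 23.5 CPM in the cRGC libraries, so the groups did not overlap and the gene was called higher in iRGCs (edgeR, log2 fold change 1.68, SE 0.16, adjusted p = 0.000212). The progenitor markers given above were higher in the same libraries, and their part in the level of Rest was not tested. Of Rest and 8 corepressor genes, 4 were called higher and 2 lower under TMM scaling, where 23.3% and 23.1% of all tested genes were, and all 9 were called higher against the pan-neuronal genes, where 78.7% were (edgeR). Under TMM scaling Rcor1, Hdac1 and Sin3a were called higher, at 0.94, 0.92 and 0.67 on the log2 scale, Rcor3 and Kdm1a were called lower at -0.77 and -0.33, and Rcor2, Hdac2 and Ehmt2 were not called, at 0.20, -0.25 and -0.14. The signs of Rcor3, Kdm1a, Hdac2 and Ehmt2 turned with the pan-neuronal scaling, to 1.16, 1.59, 1.65 and 1.77, and Kdm1a lost its call without iRGC replicate 2 (edgeR, adjusted p = 0.111). Rcor2 was called higher without cRGC replicate 3 (edgeR, adjusted p = 0.0928). Hdac2 was called lower without iRGC replicate 3 (edgeR, adjusted p = 0.0403), and also with DESeq2 (adjusted p = 0.0565) and limma voom (adjusted p = 0.0708).

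The core of the RE1 element, AGCACC and GGACAG with any NN between them, was searched on both strands within 5000 bases of each gene's start in the GRCm38 assembly, since Rest was among the genes that separated the groups. It was found at 4 of the 42 release genes (9.52%), Snap25, Syp, Syt4 and Syt6, and at 134 of 13692 tested protein-coding genes (0.979%). The sequence at Syt4 is not shown here. The other 21-base stretches are shown with the core in capitals, 5′ to 3′ on the strand of the gene. The Snap25 matches lie at chr2:136714288-136714308 and chr2:136714338-136714358, both on the plus strand in the first kilobase of the gene and intronic, the Syp match at chrX:7638737-7638757 on the plus strand in an exon that is coding in at least 1 transcript, and the Syt6 match at chr3:103573989-103574009 on the plus strand upstream of the gene. Of 105 other release genes, 2 (1.9%) held the core, Slc18a3, which was not called and lies at or under 1.19 CPM in all libraries, and Scamp5, a vesicle carrier protein that was called lower under TMM scaling (-1.13) and turned to 0.73 against the pan-neuronal genes. Scamp5 is shown for comparison, at chr9:57468194-57468214 on the minus strand, 145 bases before its start.
Snap25, match starting at 136714288: ctcAGCACCCTGGACAGgagt
Snap25, match starting at 136714338: ttcAGCACCGCGGACAGcgat
Syp: tccAGCACCGTGGACAGagcc
Syt6: ttcAGCACCGCGGACAGggac
Scamp5: tttAGCACCACGGACAGctcc
The bases after the core differ between genes, while the searched bases are identical by construction. The second Snap25 match and the Syt6 match share the bases before the core and the unsearched bases inside it. Of the 4 release genes with the core, Snap25, Syp and Syt4 were called lower under TMM scaling and Syt6 was not called. Against the pan-neuronal genes Syp and Syt6 were called higher, at 0.78 and 1.07. Snap25 and Syt4 were not called on that scale, at 0.39 and -0.41. Under TMM scaling the 4 had a median log2 fold change of -1.27, against -1.64 over all 42 genes and -1.78 over the 15 pan-neuronal genes. Outside the 42 genes, 130 tested genes held the core, with a median of -0.94 on the same scale. Of these, 70 were called lower and 16 higher, where 23.1% of all tested genes were lower and 23.3% higher. Their fold changes against the pan-neuronal genes are not given here. The part of Rest in any of these levels was not tested. A match of these letters is a description and not a bound site.

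Synaptotagmins are the vesicle's calcium sensors and their relatives, and 6 of the 8 were called lower under TMM scaling (23.1% of all tested genes), with a median log2 fold change of -1.64, while 3 were called higher against the pan-neuronal genes, a smaller share than the 78.7% of all tested genes. Syt4, a family member of neurons and dense-core vesicles that does not act as a fast calcium trigger, had 91.1, 118 and 189 CPM in the iRGC libraries and 678, 635 and 539.8 CPM in the cRGC libraries. It was 4.65-fold lower in iRGCs (edgeR, log2 fold change -2.22, SE 0.25, adjusted p = 0.000281), and 14.5% of its exonic bases are shared with Gm26658 on the other strand. Syt13, which lacks the calcium-binding residues of the family, had 87.1, 132 and 189 CPM in the iRGC libraries and 579, 525 and 638 CPM in the cRGC libraries. It was 4.27-fold lower (edgeR, log2 fold change -2.10, SE 0.25, adjusted p = 0.000349), with no overlap between the groups. Syt7, a slow sensor with high affinity for calcium, had 39.7, 53.0 and 75.9 CPM in the iRGC libraries and 256, 209.8 and 193 CPM in the cRGC libraries (edgeR, log2 fold change -1.97, SE 0.23, adjusted p = 0.000312). Syt1, the fast sensor of synchronous release, fell from 521 ± 57.5 CPM in cRGCs to 206 ± 79.9 CPM in iRGCs (SD, n = 3 each; edgeR, log2 fold change -1.34, SE 0.24, adjusted p = 0.00219). Syt11, a member without calcium binding that serves membrane traffic, was the called synaptotagmin with the smallest fold change, at 299.9, 316 and 386 CPM in the iRGC libraries and 598, 531 and 599 CPM in the cRGC libraries (edgeR, log2 fold change -0.79, SE 0.12, adjusted p = 0.00115). Syt2 and Syt6 were not called, with log2 fold changes of -0.73 and -0.79. Syt6, one of the genes with a core match above, spread widely inside each group, at 15.7, 7.33 and 20.3 CPM in the iRGC libraries and 37.1, 26.9 and 11.0 CPM in the cRGC libraries, and it passed the threshold when cRGC replicate 3 was left out (-1.14, edgeR adjusted p = 0.0584).

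Among the vesicle membrane proteins and glutamate transporters, 7 of 9 were called lower under TMM scaling, with a median log2 fold change of -1.86, and 3 were called higher against the pan-neuronal genes. Over all tested genes these shares were 23.1% and 78.7%. Slc17a6, the transporter that fills RGC vesicles with glutamate, had 37.1, 40.2 and 50.7 CPM in the iRGC libraries and 191, 189.8 and 157 CPM in the cRGC libraries. The 3 iRGC libraries lay close together and far below the 3 cRGC libraries (edgeR, log2 fold change -2.07, SE 0.15, adjusted p = 0.000201). Its relative Slc17a7 (VGLUT1), used by photoreceptors and bipolar cells of the retina, was barely counted in either group, at 1.86, 1.36 and 3.34 CPM in the iRGC libraries and 2.11, 1.24 and 0.645 CPM in the cRGC libraries, and was not called. Syn2, a synapsin that tethers vesicles in reserve, had 2.70, 4.02 and 5.87 CPM in the iRGC libraries and 19.5, 22.6 and 16.4 CPM in the cRGC libraries (edgeR, log2 fold change -2.22, SE 0.32, adjusted p = 0.000757). Syn1, the most abundant synapsin per kilobase, and Syn3 fell alongside it, at -1.92 and -1.66, though Syn3 shares 14.1% of its exonic bases with Timp3. Sv2a, a glycoprotein found on nearly all synaptic vesicles, had 46.6, 64.3 and 118 CPM in the iRGC libraries and 318, 314 and 296 CPM in the cRGC libraries (edgeR, log2 fold change -2.02, SE 0.29, adjusted p = 0.000805). Sv2c also fell (-1.86), but the third member, Sv2b, had 49.5, 38.8 and 61.4 CPM in the iRGC libraries and 27.4, 35.4 and 51.7 CPM in the cRGC libraries. Its groups overlapped and it was not called (edgeR, log2 fold change 0.39, SE 0.25, adjusted p = 0.259), while without cRGC replicate 3 it was called higher at 0.67 (edgeR, adjusted p = 0.0617). Synaptophysin, Syp, the classic vesicle marker, fell as well (-1.07, SE 0.20), with 16.8% of its exonic bases shared with the antisense gene Gm14703.

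The core fusion genes were mixed. Of the 8 SNARE, fusion ATPase and complexin genes, 5 were called lower and 1 higher under TMM scaling, with a median log2 fold change of -0.96, where 23.1% and 23.3% of all tested genes were. Against the pan-neuronal genes 5 were called higher, as were 78.7% of all tested genes. Snap25, the target-membrane SNARE with 2 of the core matches shown above, had 149, 136 and 231 CPM in the iRGC libraries and 494, 480.2 and 453 CPM in the cRGC libraries. All its iRGC values were below all its cRGC values (edgeR, log2 fold change -1.47, SE 0.19, adjusted p = 0.000487). Its partner Stx1a had 22.8, 40.5 and 54.5 CPM in the iRGC libraries and 132, 128 and 114 CPM in the cRGC libraries (edgeR, log2 fold change -1.66, SE 0.27, adjusted p = 0.00135). Vamp2, the vesicle SNARE, and Nsf, the ATPase that takes used complexes apart, were also called lower (-1.12, SE 0.15, and -0.79, SE 0.11). Vamp1, the other synaptobrevin, averaged 7.53 CPM in iRGCs and 8.02 CPM in cRGCs, with a log2 fold change of -0.09, a sign that turned when single libraries were left out.

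The 3 complexins each behaved differently under TMM scaling. Cplx1, the complexin of most mature fast synapses, had 18.2, 24.0 and 50.2 CPM in the iRGC libraries and 106, 112 and 80.8 CPM in the cRGC libraries (edgeR, log2 fold change -1.70, SE 0.34, adjusted p = 0.00397). Cplx2, its close relative, had 256, 233 and 330.4 CPM in the iRGC libraries and 348, 300.5 and 193 CPM in the cRGC libraries, with the highest and the lowest of the 6 values both in cRGCs and a log2 fold change of -0.04 that was not called. Cplx3, the complexin of retinal ribbon synapses that is also made by amacrine cells, had 10.3, 13.2 and 19.9 CPM in the iRGC libraries and 1.69, 5.83 and 4.78 CPM in the cRGC libraries. It was 3.52-fold higher in iRGCs with no overlap between the groups (edgeR, log2 fold change 1.82, SE 0.46, adjusted p = 0.0124). The call of Cplx3 and its direction held in every alternative run, with log2 fold changes of 1.43 to 3.63 and adjusted p-values up to 0.0448, the highest fold change being that of the pan-neuronal scaling, which raises all genes. Beside it, 7 of 10 amacrine markers and 6 of 7 tested photoreceptor precursor markers were called higher in iRGCs under TMM scaling. Of all tested genes 23.3% were. The part of these cells in the level of Cplx3 was not tested. Slc32a1, the vesicular GABA transporter of inhibitory neurons, looked at after its values were seen, also was called higher, at 9.13, 11.7 and 16.52 CPM in the iRGC libraries and 3.31, 7.25 and 3.03 CPM in the cRGC libraries (edgeR, log2 fold change 1.46, SE 0.41, adjusted p = 0.0195).

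All 12 active zone, priming and Rab3 genes were called lower under TMM scaling, against 23.1% of all tested genes, with log2 fold changes of -2.00 to -0.83. Against the pan-neuronal genes 3 of them were called higher, where 78.7% of all tested genes were. Rab3c, a small GTPase of the vesicle surface, had 41.6, 50.3 and 76.1 CPM in the iRGC libraries and 244, 244 and 186 CPM in the cRGC libraries (edgeR, log2 fold change -2.00, SE 0.22, adjusted p = 0.000284). Rims1, the scaffold that links Rab3 to calcium channels, had 16.1, 26.9 and 30.6 CPM in the iRGC libraries and 106, 99.3 and 88.8 CPM in the cRGC libraries (edgeR, log2 fold change -2.00, SE 0.22, adjusted p = 0.000284). Rims3, a short RIM that carries a single C2 domain, had 70.0, 91.7 and 106 CPM in the iRGC libraries and 349, 292 and 334 CPM in the cRGC libraries (edgeR, log2 fold change -1.86, SE 0.16, adjusted p = 0.000205). In these genes the lowest cRGC library lay well above the highest iRGC library. The giant scaffolds Bsn and Pclo, which travel together to nascent active zones, were both lower, at -1.65 (SE 0.14) and -1.29 (SE 0.11). The Munc13 priming factors Unc13a and Unc13c stood at -1.66 (SE 0.15) and -1.55 (SE 0.23), and Unc13b, which is made in many tissues, at -0.83 (SE 0.12). Rab3b had the largest SE of the 12, with 8.88, 11.0 and 28.8 CPM in the iRGC libraries and 40.1, 44.4 and 41.4 CPM in the cRGC libraries, and iRGC replicate 3 close to the cRGC values (edgeR, log2 fold change -1.37, SE 0.39, adjusted p = 0.0216). Without that library the log2 fold change of Rab3b was -2.08.

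The 5 endocytosis genes were all called lower under TMM scaling, against 23.1% of all tested genes, with a median log2 fold change of -1.75. Against the pan-neuronal genes 1 of them, Synj1, was called higher, where 78.7% of all tested genes were. Sh3gl2 (endophilin A1), which bends the neck of the budding vesicle, had 14.5, 25.9 and 44.0 CPM in the iRGC libraries and 109.9, 110.3 and 87.2 CPM in the cRGC libraries (edgeR, log2 fold change -1.86, SE 0.34, adjusted p = 0.00245). Dnm1, the neuronal dynamin that cuts it free, had 41.5, 40.6 and 68.0 CPM in the iRGC libraries and 176, 177 and 164 CPM in the cRGC libraries (edgeR, log2 fold change -1.78, SE 0.20, adjusted p = 0.000279). Snap91 (AP180), a clathrin assembly protein, had 86.2, 98.0 and 143 CPM in the iRGC libraries and 380.3, 362 and 359 CPM in the cRGC libraries (edgeR, log2 fold change -1.75, SE 0.18, adjusted p = 0.000236). The 3 genes kept all iRGC libraries below all cRGC libraries, and replicate 3 was the highest iRGC library in each. Amph fell by 1.58 on the log2 scale and Synj1, a lipid phosphatase that helps the vesicle shed its clathrin coat, fell by 1.17.

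The highest iRGC value was in replicate 3 for 39 genes and in replicate 2 for 3 genes, while over all tested genes replicate 3 was the highest for 41.0%. The median coefficient of variation over the 42 genes was 30.6% in iRGCs and 10.2% in cRGCs. Against the cRGC mean, the median log2(CPM + 0.5) difference over the 42 genes was -1.90 in replicate 1, -1.76 in replicate 2 and -1.18 in replicate 3. The pan-neuronal sums given above were also highest in replicate 3, and the progenitor sums lowest. In replicate 3, 8.21% of tallied alignments overlapped no gene, against 14.99% in replicate 1 and 14.1% in replicate 2, and the part of any of these in the spread was not tested. Without iRGC replicate 3 the median log2 fold change of the 42 genes was -1.85, and without iRGC replicate 1 it was -1.46 (both edgeR).

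**Figure D3:**
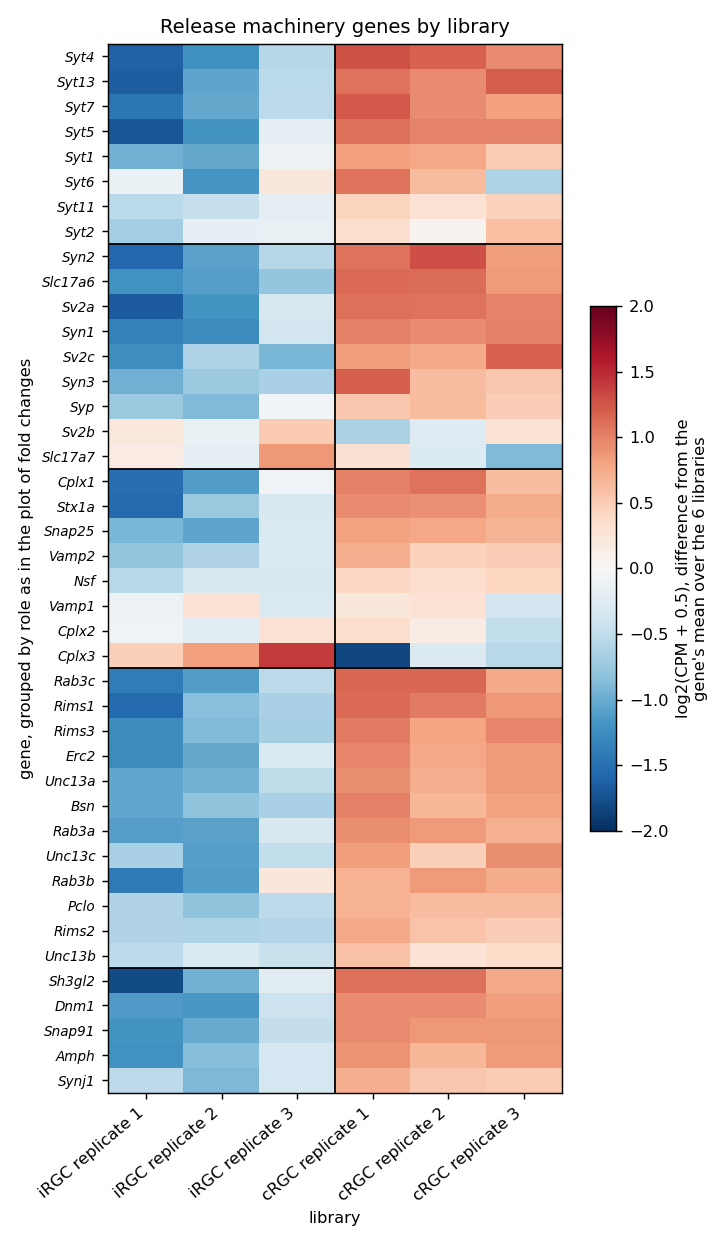
Level of each of the 42 genes (rows, grouped by role) in each of the 6 libraries (columns), as log2(CPM + 0.5) minus the gene's mean over the 6 libraries (TMM scaling; blue below the mean, red above). Most rows are blue in the 3 iRGC libraries and red in the 3 cRGC libraries, palest in iRGC replicate 3. Cplx3 is reversed, and Syt6, Sv2b, Slc17a7, Vamp1 and Cplx2 show no split.

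Levels per kilobase of exon gave the order of the transcripts within each population. In cRGCs the highest were Syt4 at 159 ± 18.1, Syt13 at 154 ± 14.96 and Syt11 at 111 ± 7.44 CPM per kb (mean ± SD, n = 3), followed by Rab3a at 81.5 ± 6.24 and Vamp2 at 81.4 ± 8.63. The first 2 differed by less than the SD of either, as did Rab3a and Vamp2. In iRGCs Syt11 led at 64.2 ± 8.77 CPM per kb, then Cplx2 at 55.4 ± 10.3, Vamp2 at 37.5 ± 6.64, Syt13 at 36.1 ± 13.6 and Syt4 at 34.1 ± 12.9. The last 3 of these lay within 1 SD of each other. Slc17a7 was the lowest of the 42 in both populations, and Cplx3 ranked 29 in iRGCs and 39 in cRGCs.

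Shares within 9 families of paralogues, each gene's CPM per kb as a percent of the sum over the family's members among the 42 genes, do not depend on how the libraries are scaled. Paralogues outside the 42, such as Syt9, Syt16, Rims4 and Rab3d, are not in these sums, so the shares are of the listed members and not of whole families. The exact permutation test of 3 libraries against 3 cannot give a p below 0.1, and its adjusted value over the 9 families cannot fall under 0.1 either, so sizes and overlap are given. Cplx2 made up 81.5, 75.4 and 69.3% of complexin transcript in the iRGC libraries and 59.0, 53.4 and 50.4% in the cRGC libraries, a difference of 21.2 percentage points (exact permutation test, two-sided p = 0.1, adjusted p = 0.15), which was 13.8 points without division by length. Cplx1 made up 18.1% ± 5.38 in iRGCs and 44.3% ± 3.52 in cRGCs, and Cplx3 6.52% ± 0.919 and 1.43% ± 0.843 (mean ± SD, n = 3). Within the SV2 family, Sv2a made up 56.5, 64.9 and 72.5% in iRGCs and 85.9, 85.2 and 79.7% in cRGCs, a difference of -18.9 points with the same exact p (-22.5 without division by length), and Sv2b took 25.2% ± 6.89 against 5.71% ± 1.84. Unc13a gave 53.3% ± 4.78 of Munc13 transcript in iRGCs and 65.5% ± 0.951 in cRGCs, and Unc13b 40.9% ± 5.33 and 27.9% ± 1.09. The groups did not overlap in these shares, whereas those of Sv2c and Unc13c did.

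Smaller shifts without overlap were found for Slc17a7, at 4.75% ± 1.46 of the 2 glutamate transporters in iRGCs and 0.718% ± 0.347 in cRGCs, for Vamp1, at 1.99% ± 0.600 and 0.962% ± 0.243, and for Rims1, at 17.3% ± 2.65 and 20.8% ± 1.74 (mean ± SD, n = 3; each with exact permutation p = 0.1). The Rims1 groups were nearly in contact, with a highest iRGC share of 18.96% and a lowest cRGC share of 19.0%. Without iRGC replicate 1 the Rims1 difference went from -3.46 to -1.93 points. Without division by length that of Vamp1 went from 1.03 to 2.61 points. Rims2, whose share was not tested, moved further, at 23.8% ± 4.34 in iRGCs and 15.97% ± 0.922 in cRGCs. The shares of Syt1, Syn1 and Rab3a in their families overlapped between the groups, with exact permutation p-values of 0.2, 1.0 and 0.4. Syn1 made up 92.2% ± 1.42 of synapsin transcript in iRGCs and 92.2% ± 1.13 in cRGCs. Within the synaptotagmins, Syt11 made up 36.7% ± 5.47 in iRGCs against 19.8% ± 1.19 in cRGCs, and Syt4 18.6% ± 1.63 against 28.3% ± 2.5.

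**Figure D4:**
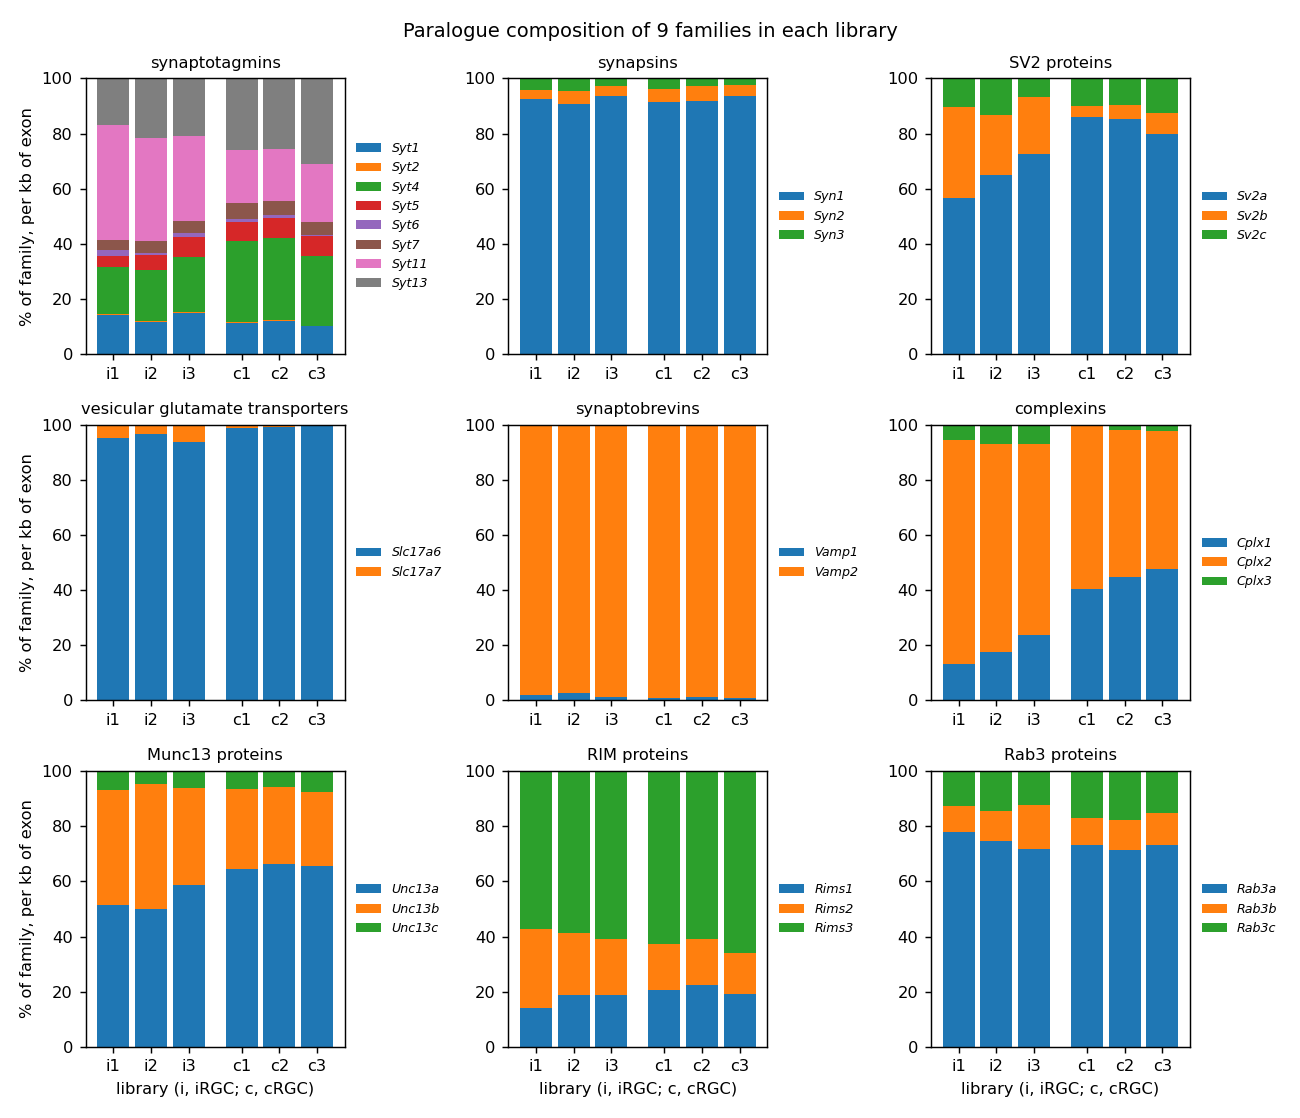
Composition of 9 families in each library, as percent of the family's CPM per kb of exon (stacked bars to 100%; i1 to i3 are the iRGC libraries, c1 to c3 the cRGC libraries). The complexin bars hold more Cplx2 and less Cplx1 in all 3 iRGC libraries, the SV2 bars more Sv2b, and the synapsin bars differ little.

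Beyond the 42 genes, 106 other genes of release, docking and vesicle recycling were taken as a wider list, of which 103 were tested. Under TMM scaling 60 (58.3%) were called lower, against 23.1% of all tested genes, and 15 (14.6%) higher, against 23.3%, with a median log2 fold change of -0.63. Scaling by the pan-neuronal genes gave 1 lower and 72 higher, where 78.7% of all tested genes were called higher. The share called lower was smaller than the 83.3% of the 42 genes, and no test of that difference was made. Among called genes with a mean of at least 10 CPM over the 6 libraries, those that fell most were Apba1 (Mint1), an adaptor of the presynaptic membrane (-2.40), the synaptophysin relative Synpr (-2.24), the synaptogyrin Syngr3 (-2.10, and -2.76 without iRGC replicate 3), the liprin Ppfia4 (-2.05) and Syt16 (-1.91). Apba1 had 27.4, 31.7 and 54.5 CPM in the iRGC libraries and 216, 212 and 173 CPM in the cRGC libraries, and it was the gene still called lower against the pan-neuronal genes (-0.59, edgeR adjusted p = 0.0716). By the same rule those that rose most were Doc2b, a calcium sensor of spontaneous release (1.97), the syntaxin-binding proteins Stxbp3 (1.51) and Stxbp6 (1.48), the SNARE Vamp3 (1.35) and the synaptophysin relative Sypl (1.30). Cadps2, Syngr2 and Vamp8, below 10 CPM over the 6 libraries and named after their values were seen, rose more, at 3.31, 3.23 and 3.07. Doc2b had 40.2, 26.8 and 40.9 CPM in the iRGC libraries and 9.03, 12.2 and 6.29 CPM in the cRGC libraries. Its lowest iRGC value was more than the highest cRGC value by a wide margin (edgeR, log2 fold change 1.97, SE 0.28, adjusted p = 0.000716).

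Some of the genes that rose are forms made by most cell types. Several of these, and the dense-core vesicle factor Cadps2, were set beside a neuronal paralogue in 6 pairs. They were picked because they rose while the neuronal gene fell, so the direction of their shares follows from the choice and only sizes are described. Of other broadly made genes of the wider list, some rose, among them Vamp8 and Stxbp3 named above, Pacsin2 (0.49) and Ppfia1 (0.44), and others did not. Stx2, Stx3, Vamp7, Dnm2 and Sh3gl1 were not called, at 0.03, 0.02, -0.10, -0.14 and 0.26 on the log2 scale, and Stx7, Stx12, Snap29 and Snap47 were called lower under TMM scaling, at -1.39, -0.87, -0.67 and -1.22. Against the pan-neuronal genes these 4 turned sign, to 0.42, 1.00, 1.22 and 0.66, and all but Stx7 were called higher (edgeR). Snap23, the SNARE of general secretion, made up 23.4, 36.0 and 16.6% of the pair with Snap25 in the iRGC libraries and 4.44, 4.82 and 5.52% in the cRGC libraries. Vamp3 made up 37.8% ± 5.02 of the pair with Vamp2 in iRGCs and 9.95% ± 2.59 in cRGCs (mean ± SD, n = 3, here and for the next pairs). Stx4a took 43.9% ± 13.9 and 10.2% ± 1.26 beside Stx1a. These 3 pairs are SNARE proteins. Among vesicle proteins, Syngr2 took 61.7% ± 11.5 and 5.47% ± 2.41 beside Syngr1, and Sypl 23.0% ± 6.60 and 5.18% ± 0.226 beside Syp. Cadps2, a priming factor of dense-core vesicles, took 9.54% ± 3.58 and 0.313% ± 0.173 beside Cadps. In every pair the gene that fell was the larger part in each cRGC library. In iRGCs Syngr2 passed Syngr1 in replicates 1 and 2, and Stx4a passed Stx1a in replicate 1. The progenitor markers given above were higher in the same libraries, and their part in these shares was not tested.

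**Figure D5:**
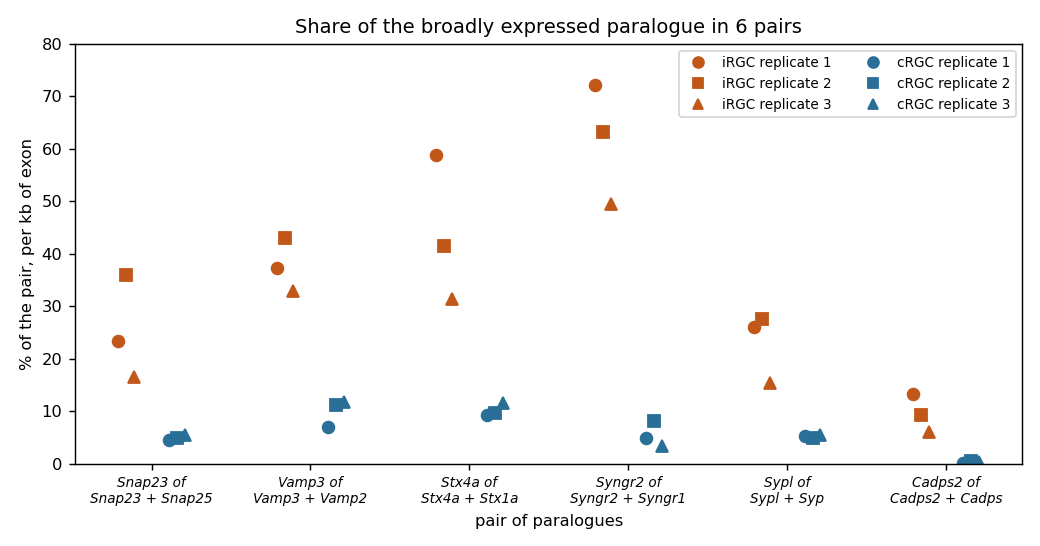
Share of the paralogue that rose in 6 pairs (vertical axis, percent of the pair's CPM per kb of exon; 1 point per library, iRGCs in orange, cRGCs in blue, replicates by shape). The term broadly expressed in the title is not meant for Cadps2. The pairs were picked for a gene that rose and a neuronal paralogue that fell, so the higher iRGC points follow from the choice. The gene that rose reaches up to 72.2% of its pair in iRGCs (Syngr2, replicate 1).

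The third vesicular glutamate transporter, Slc17a8, was at 0 counts in iRGC replicate 1 and at 0.371 and 0.315 CPM in the other iRGC libraries, against 3.00, 2.45 and 3.45 CPM in cRGCs, and was named after its values were seen. The test called it lower under TMM scaling (edgeR, adjusted p = 0.0299), a call lost without cRGC replicate 3 (adjusted p = 0.101) and with the pan-neuronal scaling (adjusted p = 0.172, both edgeR).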

How the data were processed

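RNA from sorted Sun1-GFP cells was sequenced in 3 iRGC and 3 cRGC libraries. The 13 ATAC-seq samples were not analysed here. The authors aligned reads to mm10 with HISAT2 2.1.0, counted them on Ensembl GRCm38 genes with HTSeq 0.11.1 and deposited whole-number counts per gene, 1 table per library, without normalization. The strand setting of the counting is not given in the sources used here, so counts of genes whose exons overlap those of another gene are uncertain. HTSeq's tallies without a gene (no feature 8.21% to 17.1% of tallied alignments, ambiguous 0.630% to 0.658%, not unique 26.4% to 33.5%) stayed out of library sizes and tests.

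Symbols, positions and exon lengths came from GENCODE M21 (GRCm38) and covered 46574 of 47069 identifiers, and RE1 sequences from the RefSeq GRCm38.p6 genome. The test was edgeR 4.0.16 in R 4.3.3 (filterByExpr, TMM factors of 1.03 to 1.10 in iRGCs and 0.921 to 0.952 in cRGCs, quasi-likelihood test, Benjamini-Hochberg adjustment over 15941 genes). SEs were derived from the quasi-likelihood F statistic. The biological coefficient of variation was 36.3%. The test was also tested on simulated data. Family shares were compared by exact permutation tests (scipy 1.17.1).

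The members and lists were chosen with earlier results of these data known. Every member may be named. Values in each library are given for up to 3 called genes per role and direction with the largest fold change, for members called against most of their family, and for members named after their values were seen. Of the other release genes, up to 5 per direction with a mean of at least 10 CPM are named, and every gene of the REST list. Alternatives were DESeq2 1.42.0 and its size factors, upper quartile factors, scaling by pan-neuronal genes, limma 3.58.1 voom, 2 other count filters, each library left out, the replicate number as a block, stricter thresholds and shares without division by length. Results of some listed genes are not reported here.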

Additional observations from a re-analysis of the deposited data

How the results depend on the processing

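Calls of the 42 genes were the same under DESeq2, its size factors, upper quartile factors, limma voom, both other count filters and an adjusted p under 0.05, with 35 lower and 1 higher each time and a median log2 fold change of -1.64 to -1.62. With an absolute log2 fold change above 1, 1758 of all tested genes were lower and 1930 higher, as were 36 lower among the other release genes. Scaling by the pan-neuronal genes gave 42 lower and 12548 higher among all tested genes, 0 lower and 15 higher among the 42, 1 lower and 72 higher among the other release genes, and a median of 0.24. It turned the sign of 28 of the 42 genes, to log2 fold changes of Syt1 0.48, Syt2 1.15, Syt6 1.07, Syt11 1.11, Syn3 0.24, Syp 0.78, Sv2c 0.044, Snap25 0.39, Vamp1 1.85, Vamp2 0.76, Stx1a 0.13, Nsf 1.12, Cplx1 0.052, Cplx2 1.84, Unc13a 0.22, Unc13b 1.10, Unc13c 0.37, Rims2 0.72, Rims3 0.01, Bsn 0.24, Pclo 0.64, Erc2 0.14, Rab3a 0.21, Rab3b 0.35, Dnm1 0.062, Amph 0.26, Synj1 0.75, Snap91 0.10. Genes outside the 42 that it turned included Stx7 0.42, Stx12 1.00, Snap29 1.22, Snap47 0.66, Vamp7 1.78, Dnm2 1.81, Ephb1 1.56, Syngr1 0.27, Cadps 0.15, Rcor3 1.16, Hdac2 1.65, Kdm1a 1.59, Ehmt2 1.77, Pou4f2 0.76. Leaving out 1 library at a time gave 35 to 36 lower and 1 to 2 higher genes of the 42, the additional ones being Syt6 and Sv2b without cRGC replicate 3, and medians of -1.85 to -1.46. Values near 0 changed sign with 1 library left out, from -0.288 to 0.059 for Vamp1 and from -0.241 to 0.134 for Cplx2. Slc6a4 ranged from -1.106 without iRGC replicate 3 to 0.982 without iRGC replicate 1, and was -0.859 with limma voom and -0.535 with the replicate block. Scaling by the pan-neuronal genes put Slc6a4 at 1.92 and called it higher (edgeR, adjusted p = 0.00578). Without division by length the share of Vamp1 differed by 2.61 points and that of Cplx2 by 13.8, less than the -22.5 of Sv2a. The Rims1 share difference of -3.46 points was -1.93 without iRGC replicate 1. Why these values moved was not tested.

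Same-numbered libraries had correlations of -0.01, -0.01 and -0.05 in their deviations from the group means. Such values cannot show whether same-numbered libraries shared a batch. With the replicate number as a block, 35 of the 42 genes were lower and 1 higher, the median was -1.65 (edgeR), and calls over all tested genes were 3435 lower and 3316 higher against 3688 and 3707. No pair of same-numbered libraries stood out, and the block gives no pairing from the design. Slc17a7 had 20 to 106 counts and Slc17a8 0 to 107 counts per library, and which change this depth can show was not tested.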

Other observations

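Lists of 2 related groups of genes were made after the data had been seen. Of 15 subunits and accessory proteins of the vesicular proton pump, which acidifies the vesicle so that transmitter can be loaded, 13 were called lower in iRGCs under TMM scaling (edgeR), against 23.1% of all tested genes, whereas scaling by the pan-neuronal genes put all 15 higher, against 78.7%. The log2 fold changes of all 15 ranged from -0.94 to -0.07 with a median of -0.64 under TMM scaling. Their sum was 1158, 1195 and 1502 CPM in the iRGC libraries and 2024, 2029 and 2144 CPM in the cRGC libraries, with Atp6v1b2 the most abundant. The pump serves all acid compartments of the cell, and Atp6v0a1, the subunit a form of neurons, stood at -0.91 while Atp6v0c and Atp6v1f were not called, at -0.07 and -0.41.

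Of 11 genes of dense-core vesicles, which carry peptides, 9 were called lower under TMM scaling (edgeR), against 23.1% of all tested genes, with a median log2 fold change of -1.30, and 4 were called higher against the pan-neuronal genes, where 78.7% of all tested genes were. Their sum was 587, 669 and 1126 CPM in iRGCs and 1991, 1950 and 1880 CPM in cRGCs, with Cpe, a peptide-trimming enzyme, the most abundant. Ptprn, a membrane protein of these vesicles, stood at -1.88, Scg3 at -1.52 and Cpe at -1.44, while Chgb was not called at -0.43.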
